A study of Mus musculus with 2 samples.

Results

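Doxorubicin acts on a small set of proteins in a cell, and 10 of their genes, of 32285 in the count matrices, were followed here through the cells of the mouse retinal pigment epithelium (RPE) layer. They were chosen by name from the gene symbols of the deposited files: the topoisomerases Top2a, Top2b and Top1, the efflux pumps Abcb1a, Abcb1b, Abcc1 and Abcg2, the carbonyl reductases Cbr1 and Cbr3, and the cytochrome P450 reductase Por. All 10 genes had more than 200 UMIs in each library (UMIs, unique molecular identifiers, mark single RNA molecules). The question was which cell types of this tissue hold the forms of the drug's target, the pumps that export it and the enzymes that reduce it.

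Doxorubicin is an anthracycline that holds type II topoisomerases on the DNA they have cut and so leaves double-strand breaks. TOP2A is made mainly by dividing cells, whereas TOP2B is also made by cells that have left the cell cycle, as those of the adult RPE have. P-glycoprotein (Abcb1a and Abcb1b in mice, a single gene in humans), BCRP (Abcg2) and MRP1 (Abcc1) carry anthracyclines out of cells, carbonyl reductases convert doxorubicin to the alcohol doxorubicinol, and POR can pass an electron to its quinone, which starts redox cycling.

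The study injected 1 µl of PBS (control) or 1 µl of Dox at 100 ng/µl under the retina of C57BL/6J mice 3 months of age, and took the cells on day 7 by papain digestion of the RPE with the choroid and sclera still attached. Each library pooled 10 eyes of 5 mice, so that there was 1 library per condition and animals could not be separated. Both groups therefore carried the injury of an injection, and by the study's own account the drug reached only part of the RPE. No replicate spread can be given, no test between conditions was made, and every 95% interval below covers counting error only.

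The control library held 20381 barcodes and 117731270 UMIs, and the Dox library 15649 barcodes and 103997248 UMIs. Filters kept 20180 and 15426 cells, with a median of 4495 and 4995 UMIs. Of the kept cells, 427 in each library had a barcode that also occurred in the other. The labels call the samples RPE cells, but most cells were not: after clustering without the 10 genes, 1353 control and 1433 Dox cells were RPE-like (Rpe65, the visual cycle isomerase, was 14.9-fold above all other cells), at a median of 17934 and 20420 UMIs. The other clusters, with control and Dox cells, were fibroblast-like (12707 and 9746, led by Myoc, Chad and Aldh3a1), melanocyte-like (2143 and 2046, led by Hbb-bs, a globin gene, then Hhatl, Scrg1 and Pmel), macrophage-like (992 and 583, led by 2 immunoglobulin genes and then Cd209a), smooth muscle-like (910 and 395, led by Casq2), NK or T-like (428 and 254, led by Gzmc, Gzma and Gzmb), endothelial-like (389 and 183, led by Gpihbp1) and a small fibroblast-like cluster led by Dpt (109 and 67). A cluster led by Gfra3, Kcna1, Snhg7os and Gm10863 (1149 and 719 cells) stayed unnamed, since the marker list with the highest fold in it (a median of 3.20 over 10 markers) had fewer members among the 10 leading genes than another list. The melanocyte-like and unnamed clusters were shallow, with medians of 783.5 to 2107 UMIs.

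Rpe65 RNA was found in every cluster. It stood at 2.98% to 7.26% of its RPE-like level in 6 of the other 8 clusters, but at 14.4% (control) and 34.7% (Dox) in melanocyte-like cells and at 22.2% and 33.7% in the unnamed cluster. Levels below are summed UMIs of a gene per 1000000 UMIs of the same cells (CPM). They are compared between cell types for a gene, and not between genes.

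The genes lie on 6 chromosomes (GRCm38, the assembly also called mm10, GENCODE M21 annotation). Top2a is at chr11:98992943-99024189 on the minus strand, and Top2b at chr14:16365179-16435462 on the plus strand, where Gm48163 and Rarb overlap it on the other strand. Top1 is at chr2:160645888-160722764. The 2 P-glycoprotein genes are neighbours, Abcb1a at chr5:8660077-8748575 and Abcb1b at chr5:8798147-8866315, and Por is at chr5:135670033-135735326. Abcb1b overlaps Gm5106 and Por overlaps Gm43091 on the other strand, and since the sources used here do not say whether counting used strand, the parts of these 3 overlapping genes cannot be told apart. Abcc1 (chr16:14361558-14475737) shares its chromosome with the carbonyl reductases Cbr1 (chr16:93605853-93610505) and Cbr3 (chr16:93683215-93690990), which lie next to each other, and Abcg2 is at chr6:58584523-58695676. Of the 60-base windows of the transcripts, 645 occur in both Abcb1a and Abcb1b (13.1% and 15.0% of their windows), so the division of reads between them is uncertain to that extent. No such window was shared by Top2a and Top2b or by Cbr1 and Cbr3.

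The promoters of the type II topoisomerases and of the P-glycoprotein genes are shown because the members of each pair were highest in different clusters. The RefSeq table (GRCm38.p6) held a promoter for 9 of the 10 genes. Each sequence runs 5′ to 3′ from 250 bases before to 50 bases after the start, and capitals mark CCAAT or its reverse complement ATTGG, the letters bound by the factor NF-Y. The windows are chr11:99024140-99024439 (minus strand) for Top2a, chr14:16364956-16365255 (plus) for Top2b, chr5:8566841-8567140 (plus) for Abcb1a and chr5:8797897-8798196 (plus) for Abcb1b.
Top2a: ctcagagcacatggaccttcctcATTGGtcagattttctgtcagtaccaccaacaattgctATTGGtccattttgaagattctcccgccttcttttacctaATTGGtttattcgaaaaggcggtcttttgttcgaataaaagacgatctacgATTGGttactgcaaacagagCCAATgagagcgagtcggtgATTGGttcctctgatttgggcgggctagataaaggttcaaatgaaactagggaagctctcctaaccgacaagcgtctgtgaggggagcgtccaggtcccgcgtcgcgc
Top2b: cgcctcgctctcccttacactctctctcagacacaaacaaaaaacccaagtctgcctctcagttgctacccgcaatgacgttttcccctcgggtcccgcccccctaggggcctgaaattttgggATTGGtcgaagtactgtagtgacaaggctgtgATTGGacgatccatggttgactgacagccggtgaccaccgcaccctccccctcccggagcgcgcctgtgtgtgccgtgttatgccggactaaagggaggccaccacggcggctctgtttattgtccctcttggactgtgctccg
Abcb1a: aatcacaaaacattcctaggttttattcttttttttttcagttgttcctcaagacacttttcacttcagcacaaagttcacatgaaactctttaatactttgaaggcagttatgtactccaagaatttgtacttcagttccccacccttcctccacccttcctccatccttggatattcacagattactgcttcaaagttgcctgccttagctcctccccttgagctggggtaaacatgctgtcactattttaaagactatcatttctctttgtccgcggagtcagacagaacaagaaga
Abcb1b: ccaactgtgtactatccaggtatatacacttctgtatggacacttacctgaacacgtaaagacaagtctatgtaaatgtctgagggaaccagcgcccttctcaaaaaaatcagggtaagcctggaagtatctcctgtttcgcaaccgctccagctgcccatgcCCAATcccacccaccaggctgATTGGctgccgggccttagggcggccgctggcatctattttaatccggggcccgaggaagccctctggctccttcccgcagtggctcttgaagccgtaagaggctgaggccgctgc
The Top2a promoter held these letters 6 times, and 26 of 32841 promoters (0.0792%) held them at least as often. Top2b and Abcb1b held them 2 times each and Abcb1a not at all, against 37.4% of all promoters with at least 1 match. No match overlapped another motif searched. The RefSeq start of Abcb1a used here lies 92986 bases before the gene start of the GENCODE annotation. A match is a run of letters in this window, not a measured site.

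A gene was counted as placed in a cluster when its CPM there was at least 2-fold that of all other kept cells of the library, in both libraries, with at least 10 UMIs in the cluster in each. Of 90 pairs of gene and cluster, 10 met this rule. NK or T-like cells took 3 of them (Top2a, Abcb1a and Abcb1b), where 7.66% of the 14545 genes considered met the rule. Macrophage-like cells took 2 (Top2a and Abcb1b, background 9.89%) and endothelial-like cells 2 (Abcb1a and Abcg2, background 6.46%). RPE-like cells took 1 (Abcc1, background 12.4%), as did the unnamed cluster (Abcc1, 16.2%) and fibroblast-like cells (Cbr3, 11.7%). None of the 10 genes was placed in melanocyte-like cells (3.77% of all genes), smooth muscle-like cells (6.52%) or the Dpt-led cluster (3.25%). The shares of 3 in 10 and 2 in 10 lie above their backgrounds, but rest on 2 or 3 genes each. Top2b, Top1, Cbr1 and Por were placed in no cluster. In RPE-like cells the median log2 fold over the other cells was -1.32 (control) and -1.53 (Dox) over the 10 genes, against -0.43 and -0.41 over all genes considered.

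**Figure D1:**
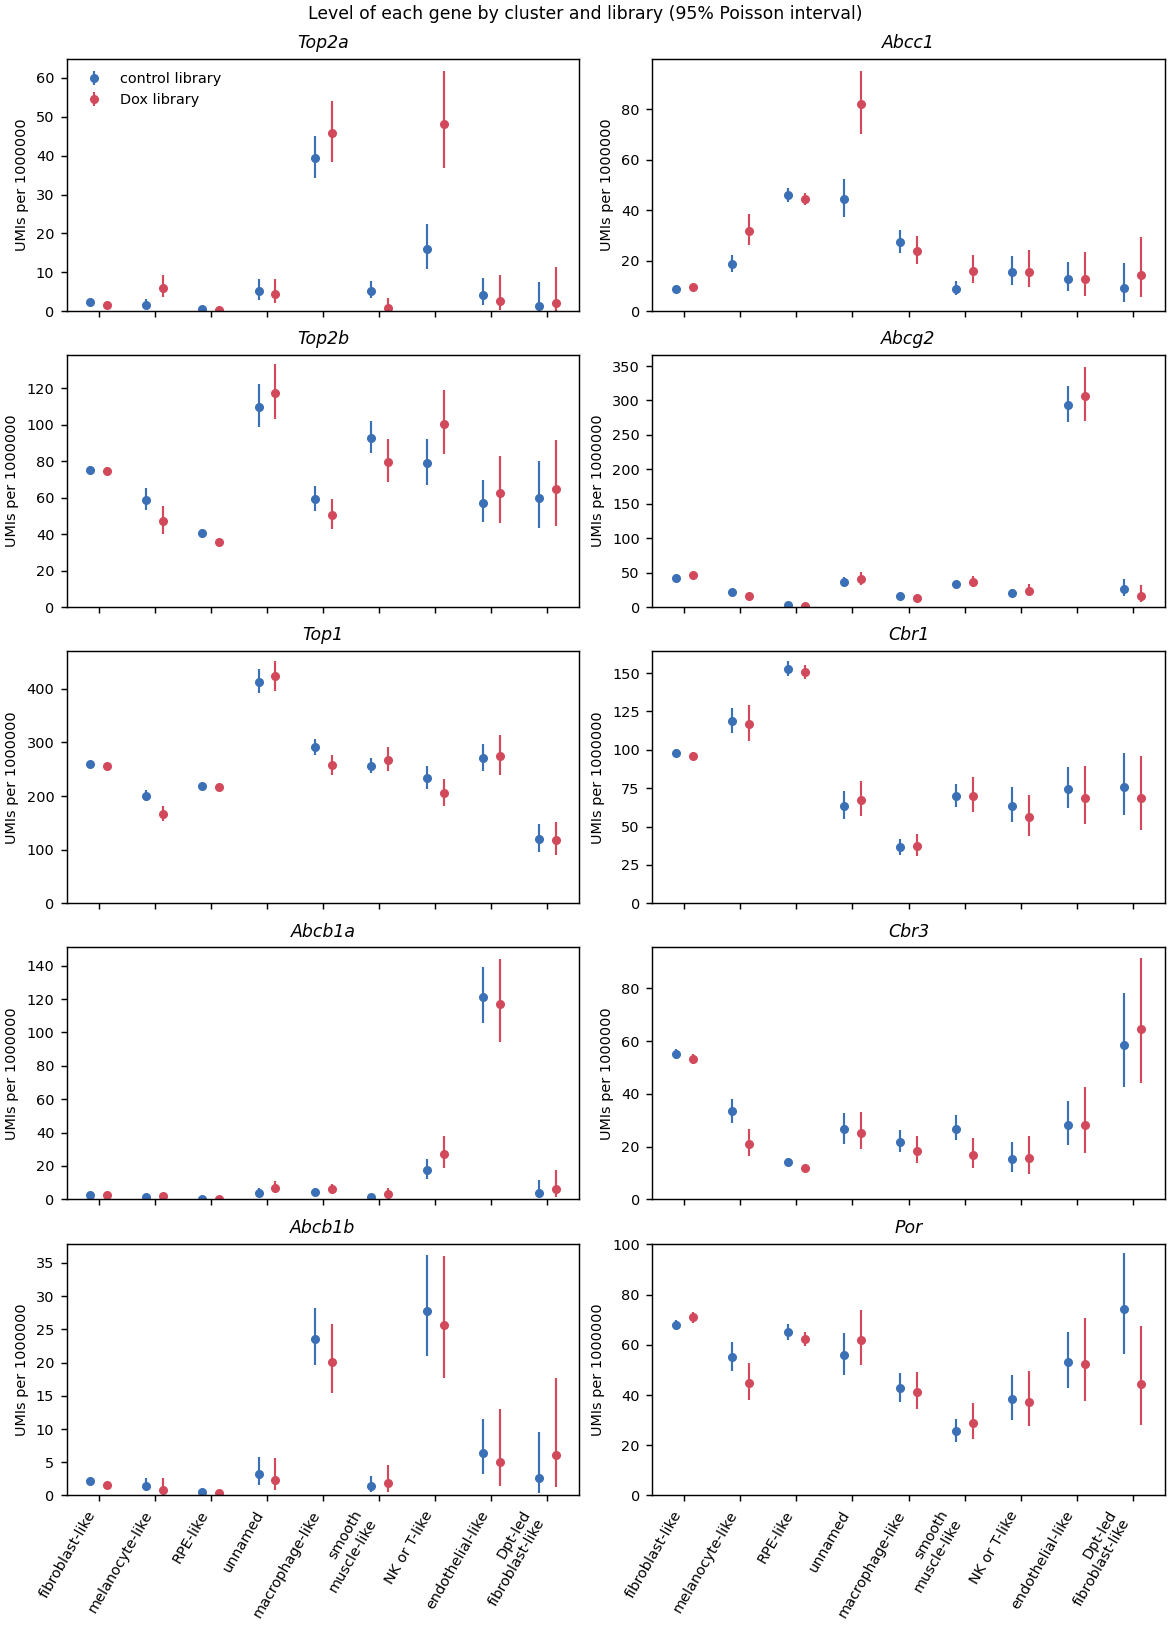
Level of each of the 10 genes in the 9 clusters, in UMIs per 1000000 (CPM) on linear axes that start at 0, with the control library in blue, the Dox library in red and bars for the exact Poisson 95% interval. Top2a was high in macrophage-like and NK or T-like cells, Abcb1a (121 and 117 CPM) and Abcg2 (294 and 307 CPM) in endothelial-like cells, and Cbr1 (153 and 151 CPM) was highest in RPE-like cells.

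Top2a was highest in macrophage-like and NK or T-like cells. Macrophage-like cells held 207 (control) and 139 (Dox) Top2a UMIs, which is 39.4 CPM (95% interval 34.2 to 45.1) and 45.8 (38.5 to 54.0). In NK or T-like cells it had 32 and 62 UMIs, 15.9 CPM (10.9 to 22.4) and 48.2 (36.9 to 61.8). The folds over the other cells were 17.0 and 22.9 in macrophage-like cells and 4.19 and 17.6 in NK or T-like cells. In control the macrophage-like interval lay above that of NK or T-like cells, and in Dox both overlapped. RPE-like cells were last of the 9 clusters in both libraries, with 14 and 7 UMIs, 0.558 CPM (0.305 to 0.936) and 0.233 (0.0938 to 0.481). These intervals overlapped those of the Dpt-led cluster in both libraries, of melanocyte-like cells in control and of smooth muscle-like and endothelial-like cells in Dox.

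A Top2a UMI was found in 217 control cells and 128 Dox cells. Because free RNA can leave single UMIs, cells were also asked for UMIs of at least 2 of 12 other cell cycle genes, among them Mki67, the proliferation marker, and Cdk1, the mitotic kinase. This left 62 and 35 cells, of which 36 and 22 were macrophage-like and 9 and 6 were NK or T-like. In macrophage-like cells 6.25% (4.83 to 7.94) and 5.32% (3.64 to 7.46) of cells had a Top2a UMI. Their median was 4191.5 and 3061 UMIs. The share in RPE-like cells, at medians of 17934 and 20420, was 0.887% (0.459 to 1.54) and 0.488% (0.197 to 1.0). Of the 93 and 61 fibroblast-like cells with a Top2a UMI, 9 and 4 also held the other genes, and of the 12 and 7 RPE-like cells 1 and 0 did. Thus 83.6% and 92.1% of the Top2a UMIs of macrophage-like cells came from cells with other cell cycle genes, against 39.3% and 28.1% in fibroblast-like cells.

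**Figure D2:**
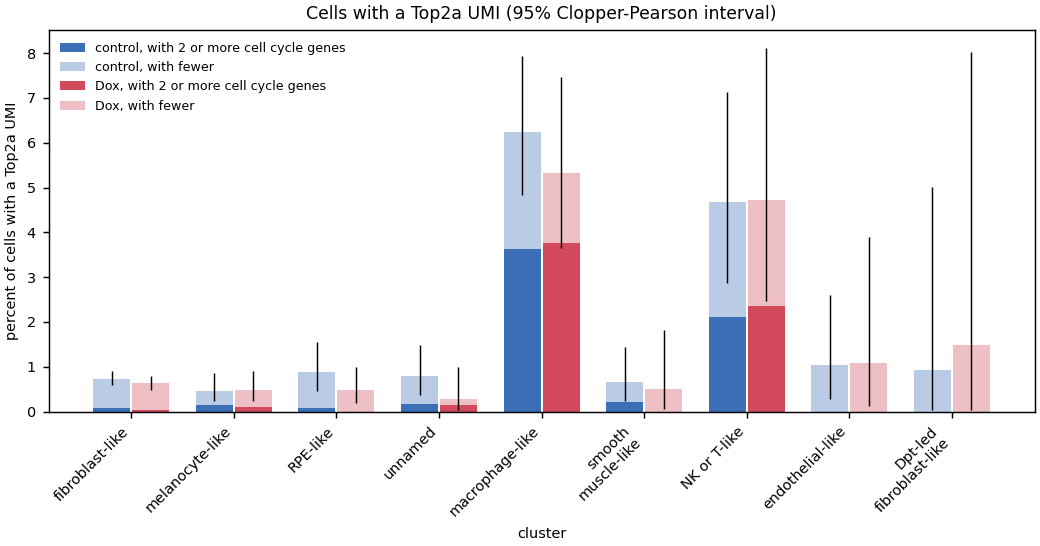
Share of cells with a Top2a UMI in each cluster, in percent, control in blue and Dox in red, with the dark part for cells that also held UMIs of at least 2 other cell cycle genes and lines for the Clopper-Pearson 95% interval of the whole bar. The bars of macrophage-like cells reach 6.25% and 5.32% and are mostly dark (36 of 62 and 22 of 31 cells), while those of fibroblast-like and RPE-like cells stay below 1% and are mostly pale.

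Most cell cycle genes were placed where Top2a was. Of the 11 of 12 with enough UMIs, 10 were placed in macrophage-like cells (all but Tyms, the thymidylate synthase) and 10 in NK or T-like cells (all but Cdk1). The shares of all genes considered were 9.89% and 7.66%. Mki67 had 46.8 and 47.4 CPM in macrophage-like cells, 37.7-fold and 40.4-fold over the others, and Birc5, the inhibitor of apoptosis survivin, 23.8 and 32.9 CPM. The median log2 fold of the list was 3.56 and 4.19 in macrophage-like cells, against -0.45 and -0.49 over all genes. In RPE-like cells the median was -3.01 and -2.60, but Cdk1 was an exception at 17.6 and 16.6 CPM, 6.20-fold and 6.19-fold over the others. Mki67 was also placed in the unnamed cluster (7.58 and 7.16 CPM, 2.37-fold and 2.88-fold), where Top2a was not. Among RPE-like cells with no Top2a UMI, 64 in control (4.77%) and 82 in Dox (5.75%) held UMIs of at least 2 cell cycle genes. In macrophage-like cells the shares were 2.37% and 2.72%. The RPE-like cells were deeper, at medians of 17934 and 20420 UMIs against 4191.5 and 3061, and these shares were not thinned. Cdk1, itself placed in RPE-like cells, was among the genes counted, and shares without it were not computed.

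Top2b was found in every cell type. It was highest in the unnamed cluster, at 110 (98.6 to 122) and 117 CPM (103 to 133), and lowest in RPE-like cells, at 40.4 (37.9 to 43.0) and 35.8 (33.7 to 38). The RPE-like interval lay below that of every other cluster in both libraries, and its level was 0.539 and 0.483 of that of the other cells together. Neighbours in the order between these ends overlapped in their intervals, apart from the step down to RPE-like cells. Fibroblast-like cells had 75.3 and 74.7 CPM and held 63.9% and 67.5% of all Top2b UMIs. Per cell the gene was still common in the RPE: 50.4% and 48.4% of RPE-like cells had a Top2b UMI. Once each cell with at least 1000 UMIs was thinned to 1000, the shares were 4.07% and 3.91%, against 7.02% and 7.09% of fibroblast-like cells. Cells with fewer UMIs were left out of every thinned value here and below.

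Top1, which cuts a single strand and is not the main target of doxorubicin, was also found in every cell type. Its level was 219 CPM (213 to 225) and 216 (211 to 222) in RPE-like cells and 260 and 255 in fibroblast-like cells. The unnamed cluster was highest (413 and 423 CPM), melanocyte-like cells were next to last (201 and 166) and the Dpt-led cluster was last (119 and 117), and these ends were set off from their neighbours by intervals that did not overlap, while most clusters between them overlapped. Of 5 related enzymes, the topoisomerases Top1mt, Top3a and Top3b and the phosphodiesterases Tdp1 and Tdp2, which clear topoisomerase from DNA ends, none was placed in RPE-like cells. Top3a and Top3b were placed in the unnamed cluster and Tdp1 in smooth muscle-like cells. The shares of all genes considered were 12.4% in RPE-like cells, 16.2% in the unnamed cluster and 6.52% in smooth muscle-like cells.

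The P-glycoprotein genes divided between vessel and immune cells. Endothelial-like cells had 208 control and 92 Dox UMIs of Abcb1a, 121 CPM (105 to 139) and 117 (94.5 to 144), which is 49.2-fold and 46.4-fold over the other cells. NK or T-like cells followed with 35 UMIs in each library, 17.4 CPM (12.1 to 24.2) and 27.2 (18.9 to 37.8), 4.35-fold and 8.71-fold. A UMI was seen in 33.7% (29.0 to 38.6) and 35% (28.1 to 42.4) of endothelial-like cells at medians of 3799 and 3951 UMIs, and in 0.517% and 0.209% of RPE-like cells at medians of 17934 and 20420. Abcb1b was not placed in endothelial-like cells (6.42 and 5.10 CPM). It stood at 27.8 CPM (21 to 36.1) and 25.6 (17.7 to 36) in NK or T-like cells and at 23.6 (19.6 to 28.1) and 20.1 (15.4 to 25.8) in macrophage-like cells, and these overlapped. Its folds over the other cells were 9.81 and 14.1, and 10.3 and 12.9. RPE-like cells had 8 and 3 Abcb1a UMIs and 15 and 12 Abcb1b UMIs and thus the lowest level of both genes among the 9 clusters (0.319 and 0.1 CPM, and 0.598 and 0.400). Their Abcb1b intervals overlapped those of melanocyte-like and smooth muscle-like cells in both libraries and of the Dpt-led cluster in control. For Abcb1a they overlapped those of melanocyte-like and smooth muscle-like cells in control and of no cluster in Dox.

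Abcg2 shared the endothelial-like cells with Abcb1a. It had 503 and 241 UMIs there, 294 CPM (269 to 320) and 307 (269 to 348), 9.67-fold and 10.3-fold over the other cells. Fibroblast-like cells came next at 42.3 (40.7 to 43.9) and 46.1 CPM (44.4 to 47.9), and by their number held 70.6% and 81.7% of all Abcg2 UMIs. RPE-like cells were again last, at 3.78 (3.06 to 4.63) and 1.37 CPM (0.981 to 1.85). Of 389 control endothelial-like cells, 38 had UMIs of Abcb1a alone, 111 of Abcg2 alone, 93 of both and 147 of neither. In Dox the numbers were 12, 55, 52 and 64 of 183. At least 1 of these pumps was thus seen in 62.2% and 65% of endothelial-like cells, and in 6.21% and 2.79% of RPE-like cells. With cells thinned to 1000 UMIs the shares were 28.8% and 34.6% against 0.888% and 0.279%. Thinning left out 28 control and 21 Dox endothelial-like cells that had fewer UMIs.

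Of the 4 pumps, Abcc1 was the one placed in RPE-like cells. The control library had 1154 UMIs of it there and the Dox library 1333, 46.0 CPM (43.4 to 48.7) and 44.5 (42.1 to 46.9), 3.81-fold (3.51 to 4.15) and 3.25-fold (2.99 to 3.53) over the other cells. These cells held 51.4% and 58.4% of all its UMIs. The unnamed cluster had a like level in control, 44.5 CPM (37.5 to 52.5), and a higher one in Dox, 82.1 (70.3 to 95.3), and macrophage-like cells had 27.2 and 23.7. Fibroblast-like cells were lowest in both libraries, at 8.77 and 9.37. An Abcc1 UMI was found in 53.2% and 55.1% of RPE-like cells and, after thinning, in 6.36% and 5.58%, against 0.884% and 0.979% of fibroblast-like cells.

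**Figure D3:**
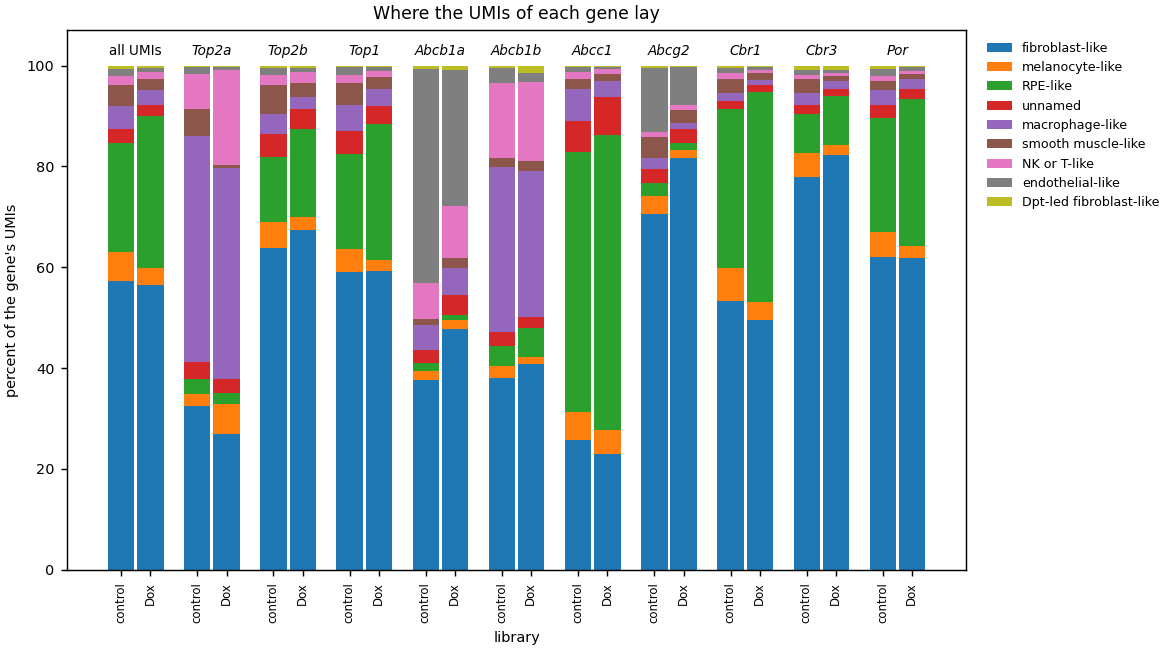
Division of the UMIs of each gene among the 9 clusters, in percent of the gene's UMIs in the library, with a bar for control and Dox each and the division of all UMIs at the left. RPE-like cells (green) hold 51.4% and 58.4% of the Abcc1 UMIs, and fibroblast-like cells (dark blue) 78.0% and 82.3% of the Cbr3 UMIs.

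Of 10 other drug transporters, 6 had enough UMIs. The share of all genes considered that was placed in RPE-like cells was 12.4%. Abcb8, a transporter of the mitochondrial membrane, and Abcc4 (MRP4) were placed in RPE-like cells, with 22.9 and 21.4 CPM for the former and 18.7 and 19.0 for the latter. Abcc4 was also placed in endothelial-like cells (27.4 and 33.1 CPM), Abcc5 and Abcc10 in the unnamed cluster and Abcc3 (MRP3) in macrophage-like cells (10.5 and 13.2 CPM, 18.3-fold and 28.2-fold). Abcc6, the transporter mutated in pseudoxanthoma elasticum, was past 4-fold in fibroblast-like cells but at only 0.408 and 0.536 CPM. Slc22a16, a carnitine carrier that takes up doxorubicin, had no UMI in either library.

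Cbr1 was highest in RPE-like cells, at 153 (148 to 158) and 151 CPM (146 to 155), and its intervals there lay above those of every other cluster. The fold over the other cells, 1.67 and 1.65, was short of the limit of 2. Melanocyte-like cells followed at 119 and 117 CPM, then fibroblast-like cells at 97.8 and 95.8, and macrophage-like cells were lowest at 36.5 and 37.5. Cbr3, its neighbour on the chromosome, had another order. It had 55.1 CPM (53.4 to 57.0) and 53.3 (51.4 to 55.3) in fibroblast-like cells, 2.64-fold and 3.59-fold over the others, a like 58.4 and 64.8 in the Dpt-led cluster, and only 14.3 (12.9 to 15.9) and 11.7 (10.5 to 13.0) in RPE-like cells, the lowest of all clusters. Fibroblast-like cells held 78.0% and 82.3% of the Cbr3 UMIs. With fibroblast-like cells assigned by marker scores the folds were 1.72 and 2.07, the former short of the limit. That assignment kept 37.6% of the cells of the fibroblast-like cluster. In NK or T-like cells (15.4 and 15.5 CPM) the level overlapped that of RPE-like cells.

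Por ranged from 25.6 and 29.0 CPM in smooth muscle-like cells to 74.3 in the Dpt-led cluster in control and 70.9 in fibroblast-like cells in Dox. RPE-like cells had 65.1 CPM (61.9 to 68.3) and 62.1 (59.3 to 65), 1.05-fold and 0.945-fold of the other cells. Neighbours in this order mostly overlapped, and smooth muscle-like cells were last in both libraries.

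Other reductases were placed in a few cell types. Beside the counts for RPE-like cells stands the 12.4% of all genes considered that were placed there. Of 9 other carbonyl, aldo-keto and quinone reductases with enough UMIs, Cbr4, a mitochondrial carbonyl reductase, and Nqo1, the quinone reductase that transfers 2 electrons, were placed in RPE-like cells, Nqo1 at 235 and 225 CPM. Cbr2 was placed in macrophage-like cells (67.2 and 64.5 CPM, 36.9-fold and 129-fold) and in smooth muscle-like cells (17.7 and 10.4). Akr1b8 was placed in melanocyte-like cells and Akr1b3, aldose reductase, in NK or T-like cells. Of 9 flavin reductases and oxidases none was placed in RPE-like cells, and Nos3, the nitric oxide synthase of vessels and another enzyme that can reduce the doxorubicin quinone, had 87.0 and 99.4 CPM in endothelial-like cells, 39.2-fold and 48.4-fold. Cyb5r3 and Xdh were placed in fibroblast-like cells, Xdh also in the Dpt-led and unnamed clusters, Ndor1 in the unnamed cluster, and Cyb5r4 and Txnrd1 in macrophage-like cells. Among 8 proteins that take electrons from POR, Sqle, the squalene epoxidase, was placed in RPE-like cells (26.0 and 27.4 CPM), and Hmox1, Cyp1b1 and Cyp2f2 in fibroblast-like cells. The last 2 of these were past 4-fold, at 106 and 132 CPM for Cyp1b1 and 58.7 and 54.8 for Cyp2f2. Cyp4b1 had 51.8 and 31.9 CPM in melanocyte-like cells, 14.4-fold and 30.3-fold, and was also placed in the unnamed cluster, and Cyb5a was placed in melanocyte-like cells.

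The Rpe65 level gives a scale for the levels outside the RPE-like cells. Had all Rpe65 in a cluster come with RPE RNA in its usual ratio, it would have brought 53.6% (control) and 75.4% (Dox) of the Cbr1 UMIs of the unnamed cluster and 18.6% and 44.8% of those of melanocyte-like cells. For Abcc1 the shares were 35.3% and 48.4% in melanocyte-like cells and 23.0% and 18.2% in the unnamed cluster. For Top2a in macrophage-like cells they were 0.0732% and 0.0345%.

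**Figure D4:**
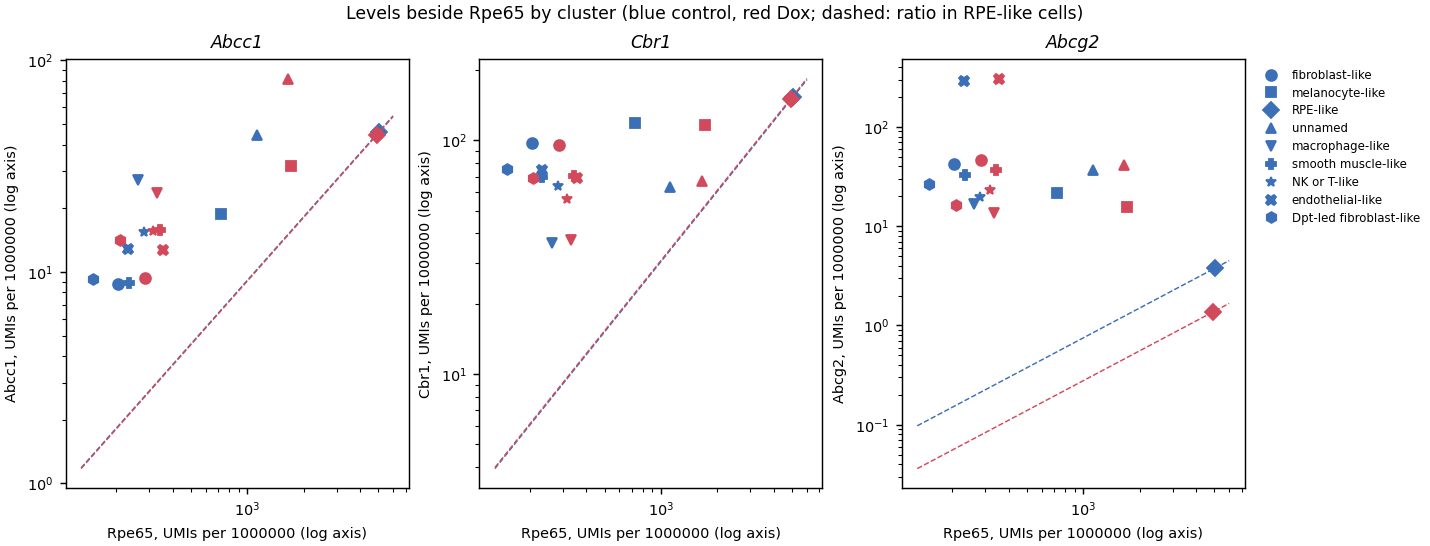
Level of Abcc1, Cbr1 and Abcg2 against that of Rpe65 in each cluster, in UMIs per 1000000 on log axes, control in blue and Dox in red, with dashed lines for the ratio in RPE-like cells. Cbr1 in the unnamed cluster (63.4 and 67.3 CPM) lies closest to its line among the other clusters, and Abcg2 lies far above its lines in all of them.

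The RPE-like cells were clustered again into 5 groups, of which 4 took the names of the study's RPE clusters by their markers. There were 645 control and 671 Dox cells in the cluster 1-like group, 290 and 165 cluster 2-like cells (led by Mgp, Apod and Ccl2), 68 and 122 cluster 3-like cells (led by Gm26917, Lncpint and Malat1) and 85 and 185 cluster 4-like cells (led by Serpina3n, Timp1 and Gsta3). A group of 265 and 290 cells led by Ppp6r1, Lars2 and Gm42418 stayed unnamed. Cluster 3-like cells and the unnamed group had the highest mitochondrial shares, with medians of 9.26% and 7.54% and of 6.68% and 6.69%. They were also the shallowest, at medians of 5968 and 7493 and of 7805 and 8435 UMIs. The other groups had medians of 20315 to 30622 UMIs.

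The genes below differed among these groups, and the part of depth and mitochondrial share in this was not tested. Abcc1 was highest in the 2 shallow groups. It had 173 CPM (139 to 213) and 149 (126 to 174) in cluster 3-like cells and 77.7 and 61.8 in the unnamed group. Its levels were 42.7 and 40.2 in cluster 1-like, 34.5 and 39.9 in cluster 2-like and 33.9 and 31.7 in cluster 4-like cells. Top2b followed the same order at its top, with 104 CPM (78.0 to 135) and 86.4 (69.4 to 106) in cluster 3-like cells and 34.5 and 33.1 in cluster 1-like cells. Cbr1 ran the other way, from 53.8 (35.8 to 77.8) and 62.4 CPM (48.1 to 79.5) in cluster 3-like cells to 164 and 162 in cluster 1-like and 168 and 157 in cluster 4-like cells. The few Abcg2 UMIs of the RPE lay mostly in cluster 2-like cells (66 of 95 in control, 27 of 41 in Dox; 11.1 and 6.96 CPM), whose leading genes include the fibroblast markers Lum, Dcn and Apod. Abcb1a had at most 5 UMIs in any of the groups, and none in cluster 3-like or cluster 4-like cells in either library.

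Between the libraries, a ratio was called at 1.5-fold or more in either direction when a gene had at least 50 UMIs over both libraries in that cluster. Of 69 such pairs of gene and cluster, 9 were called. In RPE-like cells this was 1 of 7 genes (Abcg2), against 7.76% of all genes considered there. None of 10 was called in fibroblast-like cells (background 4.89%), none of 9 in macrophage-like cells (8.04%) and none of 7 in endothelial-like cells (10.4%). In melanocyte-like cells 2 of 7 were called (15.8%), in the unnamed cluster 1 of 7 (11.1%), in smooth muscle-like cells 2 of 7 (8.15%), in NK or T-like cells 2 of 10 (9.61%) and in the Dpt-led cluster 1 of 5 (14.4%). The median log2 ratio in RPE-like cells was -0.07 over the members with enough UMIs, against -0.02 over all genes. With 1 library each, the treatment, the injection and the library cannot be told apart.

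**Figure D5:**
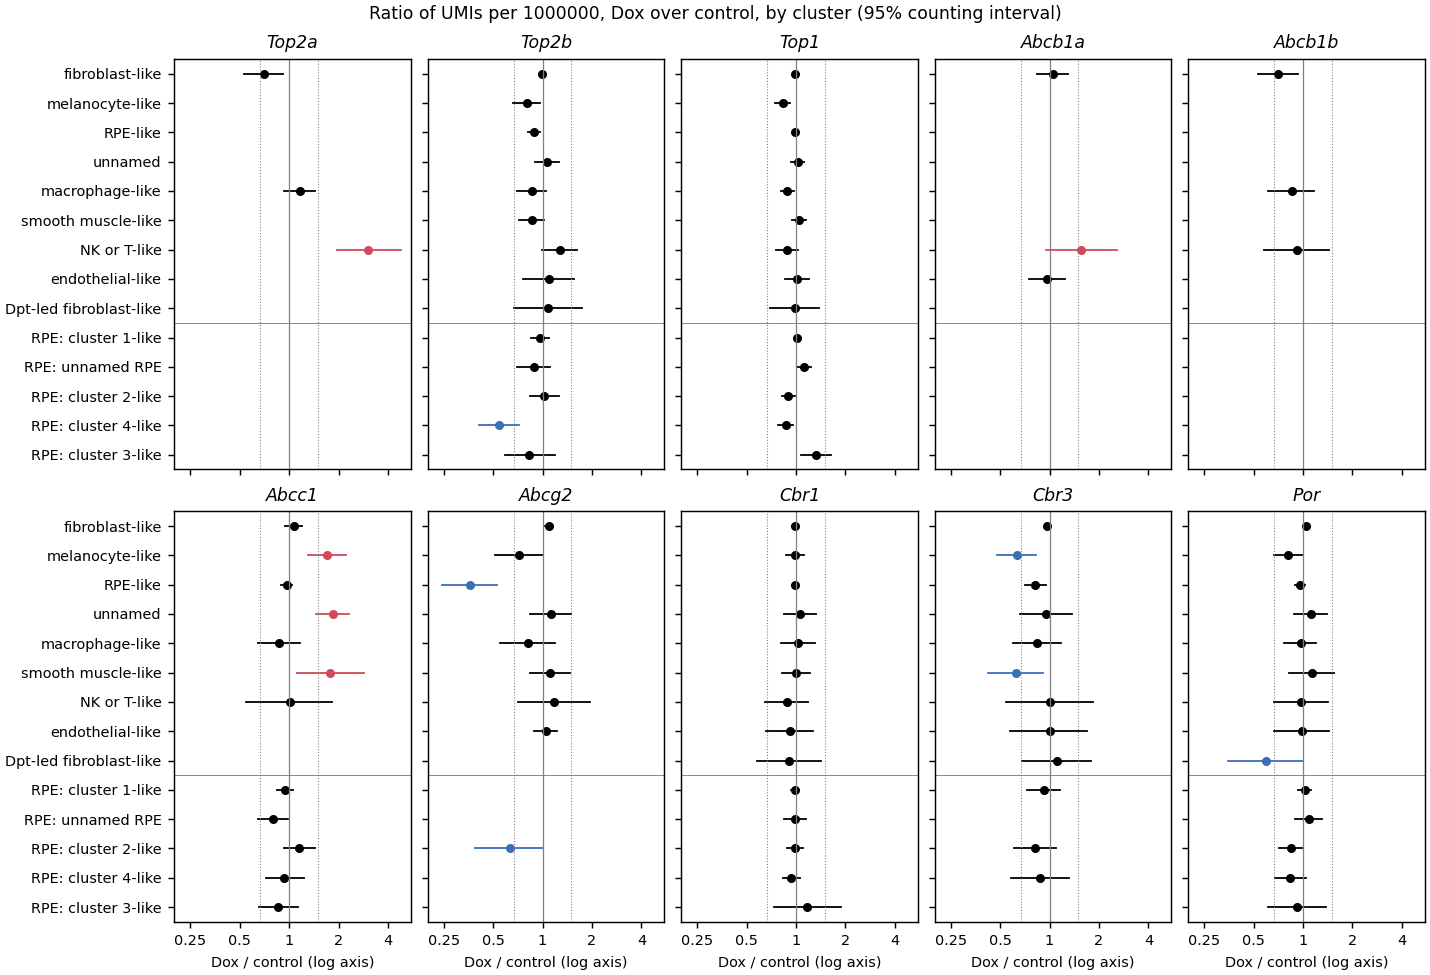
Ratio of the Dox to the control level of each gene with at least 50 UMIs in a cluster, on a log axis, with exact conditional binomial 95% intervals, dotted lines at 1.5-fold, red for calls higher in Dox and blue for calls lower. In RPE-like cells Top1, Abcc1, Cbr1 and Por lie within a few percent of 1, while Abcg2 lies at 0.361.

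In RPE-like cells Top1, Abcc1, Cbr1 and Por differed little between the libraries. Top2b and Cbr3 were lower in Dox, inside the limit of 1.5-fold. The ratio of Dox to control was 0.987 (0.952 to 1.02) for Top1, 0.886 (0.812 to 0.966) for Top2b, 0.967 (0.893 to 1.05) for Abcc1, 0.986 (0.944 to 1.03) for Cbr1 and 0.955 (0.893 to 1.02) for Por. Cbr3 stood at 0.818 (0.704 to 0.951). Abcg2 was the only gene called, with 95 control and 41 Dox UMIs and a ratio of 0.361 (0.244 to 0.526). The summed fibroblast markers of the RPE-like cells also differed, at 1290 CPM in control and 696 in Dox, and the 8 endothelial markers stood at 32.0 and 21.4. Cluster 2-like cells, which held most of these Abcg2 UMIs, made up 23.8% of all UMIs of RPE-like cells in control and 12.9% in Dox. The part of the markers and of this share in the Abcg2 ratio was not tested. With the highest doublet scores left out, Abcg2 was at 2.10 and 0.691 CPM, and with cell types assigned by marker scores the ratio was 0.936. Marker scores gave 4935 RPE-like cells over both libraries, of which 2533 were among the 2786 of the cluster. That ratio therefore covers many cells of other clusters.

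Within the RPE, 2 of 29 pairs were called. In cluster 2-like cells Abcg2 had a ratio of 0.629 (0.386 to 0.998), 1 of 7 genes against a background of 5.15%. In cluster 4-like cells Top2b had 98 control and 120 Dox UMIs, 39.0 CPM (31.7 to 47.6) and 21.1 (17.5 to 25.2), a ratio of 0.541 (0.411 to 0.714), 1 of 6 genes against 12.1% of all genes. With cells thinned to 1000 UMIs neither was called. The Abcg2 ratio was then 0.879, inside the limit. The Top2b ratio was 0.613, still past the limit, and its call was lost because too few UMIs were left. Top1 in these cells had a ratio of 0.865 (0.777 to 0.964) and Cbr1 of 0.936 (0.833 to 1.05). Of the related genes, Tdp2 was lower in Dox in cluster 4-like cells (11.9 and 7.21 CPM, ratio 0.604, 0.368 to 1.001). It was 1 of 3 topoisomerases and repair enzymes considered there. Txnrd1, a thioredoxin reductase, was lower too (53.4 and 35.2 CPM, ratio 0.659, 0.527 to 0.827), 1 of 4 flavin reductases and oxidases. None of 4 other drug transporters, 7 other reductases and 5 Por electron acceptors was called there, against 12.1% of all genes. In RPE-like cells as a whole Cyp2f2 was lower (2.51 and 1.30 CPM, ratio 0.518, 0.338 to 0.785), 1 of 7 Por electron acceptors considered. None of 5 topoisomerases and repair enzymes, 5 drug transporters, 7 other reductases and 9 flavin enzymes was called there, against 7.76% of all genes. Cyp2f2 stood at 58.7 and 54.8 CPM in fibroblast-like cells. The fibroblast markers of RPE-like cells summed to 1290 and 696 CPM, and their part in this ratio was not tested. None of the 6 members with enough UMIs was called in cluster 1-like cells (background 3.29%), none of 5 in the unnamed group (5.49%) and none of 5 in cluster 3-like cells (13.7%).

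In other cell types Abcc1 had the most calls, all higher in Dox. Its ratio was 1.84 (1.47 to 2.32) in the unnamed cluster, 1.70 (1.30 to 2.21) in melanocyte-like cells and 1.79 (1.11 to 2.86) in smooth muscle-like cells. The summed RPE markers stood at 9707 CPM in control and 15872 in Dox in the unnamed cluster. They stood at 13572 and 34665 in melanocyte-like cells and at 3942 and 6647 in smooth muscle-like cells. The sum was also higher in Dox in clusters where Abcc1 was not called. It was 3456 and 5420 CPM in fibroblast-like, 4470 and 6403 in macrophage-like and 4084 and 6288 in endothelial-like cells. The part of the RPE markers in the Abcc1 ratios was not tested. The melanocyte markers of melanocyte-like cells summed to 35458 CPM in control and 22346 in Dox. At least 2 of them were held by 99.5% and 86.0% of these cells, at medians of 1321 and 783.5 UMIs. The share was also lower in Dox in every other cluster, such as 98.1% and 78.5% in fibroblast-like cells. In macrophage-like cells it was 98.5% and 71.5%. Whether the melanocyte-like cluster differed in make-up between the libraries was not tested. With the highest doublet scores left out, the log2 ratio of Abcc1 in smooth muscle-like cells was 0.12 in place of 0.84. Cbr3 was lower in Dox in melanocyte-like cells (220 and 71 UMIs, ratio 0.634, 0.478 to 0.832) and in smooth muscle-like cells (130 and 37 UMIs, ratio 0.625, 0.421 to 0.906), and the summed fibroblast markers were lower there too, at 6920 and 4469 CPM and at 6786 and 4347, a part that was not tested. With the highest doublet scores left out, these Cbr3 ratios were 0.769 and 0.855, neither past the limit, and in smooth muscle-like cells assigned by marker scores the ratio was 1.03. Marker scores gave 2534 smooth muscle-like cells, of which 1029 were among the 1305 of the cluster. Por was lower in the Dpt-led cluster (56 and 22 UMIs, ratio 0.599, 0.348 to 0.997), the call with the fewest cells, and with cells thinned to 1000 UMIs that ratio was 1.09.

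The highest ratio among the 69 pairs with at least 50 UMIs was that of Top2a in NK or T-like cells, 3.03 (1.95 to 4.80), and it rested on few cells. The 62 UMIs of the Dox library lay in 12 cells and 23 of them in a single cell, against 32 UMIs in 20 control cells. Without the cell with the most UMIs in each library the ratio was 2.38, and with cells thinned to 1000 UMIs it was below 1 (log2 -0.47). The share of cells with a Top2a UMI was 4.67% (2.88 to 7.13) and 4.72% (2.47 to 8.11). Mki67, Birc5, Ube2c and Rrm2 were also higher in Dox in these cells, at ratios of 2.04 to 3.46. These were 4 of the 5 cell cycle genes with enough UMIs (background 9.61%). They can rest on the same few cells, as 6 Dox cells with Top2a and at least 2 other cell cycle genes held 55 of its 62 UMIs. Ratios without the cell with the most UMIs were not computed for these 4 genes. In fibroblast-like cells 8 of 12 cell cycle genes were lower in Dox (background 4.89%), among them Ube2c (200 and 62 UMIs, ratio 0.366, 0.271 to 0.489). The median log2 ratio of the 12 was -0.70, against 0.01 over all genes. The 12 macrophage markers summed to 233 CPM in control and 138 in Dox in fibroblast-like cells, 24.6% and 13.0% of which held at least 2 of them, and their part was not tested. Top2a in fibroblast-like cells had a ratio of 0.701 (0.533 to 0.917), inside the limit. Abcb1a in NK or T-like cells had a ratio of 1.57 with an interval that included 1 (0.952 to 2.58), and of 1.48 as the mean of the cells' own CPM.

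Levels of some other genes moved with those of the members from cell type to cell type. Over 16 points, the 8 named clusters in both libraries, the genes with the highest Pearson r among 10556 were Eng (0.98), Emcn and Ldb2 for Abcg2, Basp1 (0.97), Iqgap2 and Taldo1 for Abcc1, Acyp2 (0.97), Sumo3 and Aamdc for Cbr1, and Boc (0.97), Rtl3 and Vkorc1 for Cbr3. The highest values were lower for Top1 and Por, 0.91 for Slc3a2 and 0.85 for Slc30a6. The points share the 2 libraries and their depths, so these values are descriptions.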

How the data were processed

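Single-cell RNA libraries (10x 5′ kit) of control and Dox were used, 1 each. The authors deposited raw counts of UMIs per gene and cell, made by alignment to mm10 with Cell Ranger (its header says version 4.0.0, while the paper names 2 versions). How the counting treated strand and which annotation it used are not given in the sources used here. The 10 genes, the gene lists, the markers and the named genes were chosen with earlier results of these data known. The named genes are the 10 members, list genes at least 4-fold over the other cells in a cluster in both libraries or past 1.5-fold between the libraries in RPE-like or cluster 4-like cells, and the 3 genes most like a member with at least 500 UMIs. Those most like Top2b are not reported here.

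The study's limits were applied to each cell: more than 500 UMIs, between 200 and 6000 detected genes, a ratio of log10 genes to log10 UMIs of more than 0.8, and less than 0.2 of the UMIs from mitochondrial genes. Cells were normalized by SCTransform, integrated on 3000 features without the members and lists, and clustered on 40 components at a resolution of 0.1 with Seurat 5.3.0 (sctransform 0.4.2, R 4.3.3). Anchors came from reciprocal PCA for all cells and from CCA for RPE-like cells. A cluster was named, by a rule set after the clusters had been seen, from the type with the highest median marker fold of at least 2, with 3 markers at 10 CPM, 50% of cells with at least 2 markers, and no other type with more markers among the 10 leading genes. RPE groups were named when at least 2 of the study's markers were among the 10 leading genes.

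UMIs were summed per cluster and library in Python 3.11.15 (pandas 2.3.3, numpy 2.4.6, scipy 1.17.1). Intervals at 95% are exact Poisson (levels), Clopper-Pearson (shares) and exact conditional binomial (ratios). The place rule considered genes with at least 50 UMIs over all kept cells in each library. No doublets were left out. Scrublet (scanpy 1.11.5, expected 16.1% and 12.3%) called 1941 control and 0 Dox cells at its own threshold, so that it did not work for Dox, and the 3258 and 1904 cells with the highest scores were left out as an alternative. Clusters made with all 3000 features or without integration took the name of the original cluster that gave most of their cells, since naming them by markers put 1 name on different cells. The place and ratio call rules were tested on simulated Poisson totals per cluster, without spread between cells or animals. Motifs searched on both strands were CCAAT, the GC box (GGGCGG), the TATA box (TATAAA), the antioxidant response element (TGACNNNGC) and the E-box (CACGTG). Figures were drawn with matplotlib 3.10.9.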

Additional observations from a re-analysis of the deposited data

How the results depend on the processing

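Of 2999 values computed again under other settings, 2659 moved by less than their counting interval and 3 ratios past the limit changed sign: Cbr3 in smooth muscle-like cells by marker scores (log2 ratio 0.037), and with cells thinned to 1000 UMIs Top2a in NK or T-like cells (-0.47) and Por in the Dpt-led cluster (0.12). The cause was not tested. The cluster with the highest level was the same in 11 of 20 pairs of gene and library by marker scores and in at least 16 under the other settings. Marker scores give no unnamed or Dpt-led cells. Those clusters were highest for Top2b, Top1 and Cbr3 in both libraries, Abcc1 in Dox and Por in control. These pairs could therefore not stay the same by marker scores. The 10 placed pairs became 5 after thinning, where the 5 lost kept folds above 2 but had under 10 UMIs, and were 7 to 11 otherwise. The 9 calls between the libraries became 4 after thinning: 1 of the 9 (Abcc1 in the unnamed cluster) and 3 others. These 3 were Abcb1a in fibroblast-like and Top2b and Por in melanocyte-like cells. Thinning left out 870 of 2143 control and 1344 of 2046 Dox melanocyte-like cells, so thinned values there cover only the deeper cells. Of the calls lost, Abcg2 in RPE-like cells (ratio 0.343) and Abcc1 in melanocyte-like cells (1.53) stayed past the limit with too few UMIs. The other lost calls moved inside the limit. The calls were 3 by marker scores, 2 at a limit of 2-fold, 14 at 20 UMIs and 3 at 200 UMIs. They were 6 without integration, which had no Dpt-led cluster, 6 without the highest doublet scores and 7 to 9 otherwise. The 2 calls within the RPE became 1 without the highest doublet scores. Abcg2 in cluster 2-like cells was then lost for too few UMIs, at a ratio of 0.469. After thinning both were lost, Top2b for too few UMIs at a ratio of 0.613. Thinning also gained 1 other call (Top1 in cluster 3-like cells). Leaving out the barcodes found in both libraries, or the cell with the most UMIs, was chosen after seeing the data and changed no count. No paired analysis was possible because each condition had 1 library, and for the same reason none could be left out. RPE-like cells had at most 15 UMIs of Abcb1a, Abcb1b or Top2a in a library, so that no ratio between the libraries was called for them there.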

Other observations

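Macrophage-like cells with and without C1q differed in Abcb1b. Cells with a UMI of C1qa, C1qb or C1qc (604 in control and 290 in Dox) had 29.1 CPM of Abcb1b (95% interval 23.4 to 35.9) and 33.0 (24.1 to 44.0), against 15.9 (11.1 to 22.1) and 9.13 (5.11 to 15.1) in those without (388 and 293 cells). The intervals did not overlap in either library. Cells with a C1q UMI were the shallower ones, at medians of 3649 and 2941 UMIs against 5358 and 3797. Their Top2a levels, 44.5 and 57.4 CPM against 32.3 and 35.9, overlapped in their intervals.

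In the Dox library, 43 of the 62 Top2a UMIs of NK or T-like cells lay in 3 cells without a UMI of Cd3d, Cd3e or Cd3g, the T cell receptor subunits. Cells without such a UMI had 101 CPM of Top2a (73.1 to 136) in Dox and 19.1 (7.69 to 39.4) in control, and those with one 22.1 (13.3 to 34.5) and 15.2 (9.81 to 22.4). These groups were chosen after the Top2a values had been seen. In the unnamed cluster of the Dox library, 8 of the 9 Top2a UMIs lay in a single cell.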
